A study of Mus musculus with 4 samples.

Results

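The 9 genes of the BCL2 family described here were followed in blood lymphocytes of mice whose skin had been treated with non-thermal plasma (NTP): Bcl2, Mcl1, Bcl2l1, Bcl2l11, Bax, Bak1, Bbc3, Bcl2a1b and Bcl2a1d. They were chosen by name, with earlier results of these data known, and all 9 are among the 15093 genes of the deposited table. The treated mice, Maus3_2 and Maus6, were exposed on the left ear to an argon plasma jet for 10 min under anaesthesia. The untreated mice, Maus2_2 and Maus4_2, were anaesthetized in the same way and received no NTP. All 4 were female wild-type C57BL/6 mice of 3.2 ± 0.3 months, and blood was drawn from the vena cava at 120 min, counted from the plasma exposure in treated mice and from the start of anaesthesia in untreated mice. Peripheral blood mononuclear cells were then profiled by droplet single-cell sequencing of the 3′ end of RNA. No value here describes a mouse without anaesthesia, and treated mice were under it longer by at least the exposure, which cannot be told apart from the treatment.

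The BCL2 family decides at the outer mitochondrial membrane whether a cell enters apoptosis. The guardians BCL2, MCL1, BCL-XL (from Bcl2l1) and A1 (from the Bcl2a1 genes) bind and hold back the pore formers BAX and BAK (from Bak1). The BH3-only proteins BIM (from Bcl2l11) and PUMA (from Bbc3) occupy the guardians and thereby free the pore formers. Resting T cells are known to depend on BCL2 and MCL1, while BIM removes surplus lymphocytes and PUMA is a classical target of p53.

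The table holds 5794 cells with 23692981 unique molecular identifiers (UMIs, each standing for 1 captured RNA molecule), and only 4 cell barcodes occur in more than 1 mouse. The mouse was the replicate (n = 2 per group), so UMIs were summed per mouse and annotated cell type, and the sums held 279795 to 3457389 UMIs in the 4 tested types. Levels are given as CPM, the UMIs of a gene relative to all UMIs of the sum, scaled by TMM within each cell type; they were not compared between genes. The median cell had 4480.5 and 3655 UMIs in treated mice, against 4465 and 3104.5 UMIs in untreated mice. The labels of the B and T cells fitted their markers, with Cd79a in 98.9% of B cells and Cd3d in 91.1% of CD4+ and 95.8% of CD8+ T cells. Cd8b1 was found in 93.2% of CD8+ T cells. Cd4 had 134 to 145 CPM per mouse in CD4+ T cells and 0.90 to 1.51 CPM in CD8+ T cells. The 2 CD8 markers summed to 36.5 and 63.1 CPM in CD4+ T cells of treated mice, against 13.6 and 52.2 CPM in untreated mice. In CD8+ T cells they summed to 791 to 857 CPM. The cells annotated as plasmablasts had no UMI of Jchain, the joining chain of secreted antibody, in 474 cells. This allows up to 0.633% of cells with a UMI and does not limit the cells that express it. The summed plasmablast markers of these annotated cells (247 to 312 CPM per mouse) overlapped those of B cells (259 to 289 CPM). Their B cell markers summed to 10869 to 13158 CPM per mouse, against 6782 to 7320 CPM in B cells. The 73 annotated NK cells carried Cd3d, which belongs to the T cell receptor, in 98.6% of cells, and Cd8b1 in 74.0%. Their T cell markers summed to 1825 to 2226 CPM per mouse. Of 7 NK cell markers, 1 and 4 were at 0 in treated mice, and 3 and 3 in untreated mice. These 7 summed to 599 to 1157 CPM per mouse, against 251 to 315 CPM in CD8+ T cells. The names plasmablasts and NK cells are the authors' labels throughout and do not establish what these cells are. With 13 to 22 NK cells per mouse, against a minimum of 20, this type was described and not tested.

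The data behind the 9 genes differed widely, and over all 5 cell types the sums held 10497 UMIs of Bcl2, 6821 of Mcl1, 1703 of Bcl2l11, 1681 of Bax, 699 of Bbc3, 386 of Bcl2a1b, 318 of Bak1, 183 of Bcl2l1 and 92 of Bcl2a1d. The filter on low counts kept all 9 genes in B cells. It kept 8 in CD4+ T cells (not Bcl2a1d) and 7 in CD8+ T cells (not Bcl2l1 or Bcl2a1d). In plasmablasts only Bcl2, Mcl1, Bcl2l11 and Bax were tested. At this depth, small differences in the sparse genes could not have been detected.

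Bcl2 showed a graded pattern over the cell types. Over the 4 mice its mean was 1190 ± 73.0 CPM (SD) in NK cells, 703 ± 134 CPM in CD8+ T cells, 662 ± 66.0 CPM in CD4+ T cells, 251 ± 38.8 CPM in B cells and 146 ± 63.3 CPM in plasmablasts. The annotated NK cells were above CD8+ T cells, and CD4+ T cells above B cells, with no overlap of mice. The ranges of CD8+ and CD4+ T cells overlapped, as did those of B cells and plasmablasts, although B cells were above plasmablasts within each of the 4 mice. These levels describe cell types that were themselves annotated from the same counts, so no test was made between them. When each cell was thinned to 2000 UMIs, a UMI of Bcl2 was found in 79.9% of NK cells, 57.5% of CD8+ T cells, 53.6% of CD4+ T cells, 30.8% of B cells and 17.1% of plasmablasts (unthinned 93.2%, 78.7%, 69.5%, 42.1% and 23.6%).

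Mcl1 ran nearly the other way. Its level was 413 ± 57.3 CPM in plasmablasts, 306 ± 12.6 CPM in CD4+ T cells, 292 ± 7.67 CPM in B cells, 186 ± 13.7 CPM in CD8+ T cells and 186 ± 33.9 CPM in NK cells (mean ± SD, n = 4 mice). Annotated plasmablasts exceeded CD4+ T cells, and B cells exceeded CD8+ T cells, in all 4 mice without overlap. CD4+ T cells and B cells overlapped, and so did CD8+ T cells and NK cells. These levels were scaled within each type. With TMM over all 16 sums of mouse and tested type, Mcl1 had 373 ± 52.7 CPM in plasmablasts and 313 ± 11.5 CPM in CD4+ T cells. It had 285 ± 7.18 CPM in B cells and 206 ± 15.7 CPM in CD8+ T cells, and overlap of mice was not examined there. Within the B lineage, among clusters with at least 20 cells in every mouse, cluster 6 of the plasmablasts reached 449.6 CPM of Mcl1, and cluster 9, the other plasmablast cluster, 284 CPM, which lay among B cell clusters 0, 1 and 2 (272 to 297 CPM). The small B cell cluster 10, with 80 cells and as few as 7 in a mouse, had 364.5 CPM.

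Bbc3, the gene of PUMA, was largely a T cell transcript. It averaged 94.1 ± 34.9 CPM in NK cells, 60.2 ± 15.2 CPM in CD4+ T cells and 44.3 ± 17.5 CPM in CD8+ T cells, but 6.18 ± 2.80 CPM in B cells and 3.67 ± 1.90 CPM in plasmablasts (SD, n = 4). The step between CD8+ T cells and B cells was the only one of this order without overlap. Thinned to 2000 UMIs, 10.5% of CD4+ T cells (unthinned 20.8%) and 1.30% of B cells (unthinned 2.11%) had a Bbc3 UMI. As a measure of free RNA, Cd3d was found in 0.435% of B cells and 70.5% of CD4+ T cells at the same thinned depth (unthinned 0.703% and 91.1%). The median cell of a mouse had 2652 to 4033 UMIs in B cells and 3500 to 5179 UMIs in CD4+ T cells. The Bbc3 share in B cells was therefore above that of a T cell gene which B cells lack. In plasmablasts 0.657% had a Bbc3 UMI and 1.36% a Cd3d UMI at the thinned depth (unthinned 1.05% and 2.11%). The level of Bbc3 there rests on 6 UMIs.

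The remaining genes were flatter. Bcl2l11 ranged in mean over cell types from 62.3 ± 13.0 CPM in B cells to 130 ± 40.7 CPM in NK cells, and Bax from 60.0 ± 20.1 CPM in CD8+ T cells to 96.8 ± 20.4 CPM in plasmablasts (SD, n = 4). Bak1 lay between 11.9 ± 2.56 CPM in B cells and 21.4 ± 5.36 CPM in plasmablasts, and Bcl2l1 between 5.43 ± 1.46 CPM in B cells and 11.05 ± 5.20 CPM in plasmablasts. For all 4 genes every neighbouring pair of cell types overlapped. Bax in plasmablasts (81.9 to 126 CPM) still lay above B cells, CD4+ and CD8+ T cells (at most 79.5, 72.9 and 75.4 CPM) without overlap. Annotated NK cells ranked between them in mean, with 59.8 to 96.8 CPM on 5 to 13 UMIs per mouse. These levels were scaled within each type. Within the CD4+ T cell clusters of at least 20 cells per mouse, Bcl2l11 was highest in cluster 8 (125 CPM), against 94.6 CPM in cluster 5 and 63.4 CPM in cluster 3. Among the B cell clusters of that size it ranged from 38.3 CPM in cluster 1 to 78.9 CPM in cluster 2, and Bcl2 followed the same order there, with 137 CPM in cluster 1, 225 CPM in cluster 0 and 337 CPM in cluster 2.

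The A1 genes are a mouse gene family, and their counts are uncertain. In the reference transcripts, 513 of 519 coding bases of Bcl2a1b and Bcl2a1d are identical, and so are 98.0% of the aligned last 300 bases, where 3′ reads fall. Another copy, Bcl2a1a, shares 99.3% of these last bases with Bcl2a1d and 97.4% with Bcl2a1b. A stretch of 30 coding bases shows how little separates the copies, with the single differing base in capitals.
Bcl2a1b: atgGctgagtacgagttcatgtatatccac
Bcl2a1d: atgTctgagtacgagttcatgtatatccac
With that limit, both had their highest mean in B cells. Bcl2a1b averaged 21.2 ± 1.28 CPM there and 10.1 to 12.6 CPM in the other types, and Bcl2a1d averaged 6.64 ± 1.41 CPM in B cells and 2.20 CPM or less elsewhere. No UMI of Bcl2a1d was found in 600 CD8+ T cells, which allows up to 0.5% of cells with a UMI and does not limit the cells that express it. In CD4+ T cells 0.469% had a thinned Bcl2a1d UMI (unthinned 0.923%), beside 1.16% with Cd79a, a B cell gene (unthinned 2.70%). The CD4+ T cell cluster 8 had 32.8 ± 22.8 CPM of Bcl2a1b (SD, n = 4) on 26 UMIs, beside 13.3 to 23.5 CPM in B cell clusters 0, 1 and 2 and 32.4 CPM in the small B cell cluster 10. Cluster 8 includes 6 annotated B cells, and the treated mouse Maus6 had no UMI of Bcl2a1b there.

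Whether NTP on the skin was followed by a change of these genes in blood cells was tested by cell type with edgeR's quasi-likelihood test, with p adjusted by Benjamini-Hochberg over every gene of the type. None of the 9 genes passed the adjusted threshold of 0.05 in any cell type. Few genes did at all: 0.0294% of 6798 genes in CD8+ T cells, 0.0186% of 5372 in plasmablasts, 0% of 9903 in B cells and 0% of 8680 in CD4+ T cells. At an unadjusted p under 0.05 there were 4 of 7 members in CD8+ T cells, 0 of 4 in plasmablasts, 2 of 9 in B cells and 0 of 8 in CD4+ T cells, beside 8.44%, 6.79%, 4.65% and 4.79% of all tested genes. DESeq2 and limma-voom called none of them either, with 1 and 2 members in B cells, and 1 and 4 in CD8+ T cells, at an unadjusted p under 0.05, and 0 in the other types. With 2 mice per group, the smallest p an exact permutation test can give is 0.333. The members were chosen with earlier results of these data known, so their counts at an unadjusted p under 0.05 are a description.

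Bcl2, the guardian of resting lymphocytes, was lower in treated mice in all 4 tested types. In CD8+ T cells it stood at 567 and 613 CPM in treated mice, against 843 and 789 CPM in untreated mice. Both treated mice lay below both untreated ones, and the log2 fold change was -0.47 ± 0.12 (SE), with an unadjusted p of 0.000312 and an adjusted p of 0.265. Over the other fits its adjusted p lay between 0.0878 and 1, and leaving out any 1 mouse gave log2 fold changes of -0.53 to -0.41. In B cells Bcl2 had 217 and 229 CPM in treated mice, against 305 and 253 CPM in untreated mice. The groups were again separate, with a log2 fold change of -0.32 ± 0.11 (unadjusted p = 0.0114, adjusted p = 0.934 in edgeR), which was -0.18 without the untreated mouse Maus2_2.

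In CD4+ T cells Bcl2 differed little, and its groups overlapped. It had 644 and 608 CPM in treated mice, against 758 and 639 CPM in untreated mice, with a log2 fold change of -0.16 ± 0.10 (adjusted p = 0.906), or -0.03 without Maus2_2. In plasmablasts it had 135 and 103 CPM in treated mice, against 239 and 107 CPM in untreated mice. The estimate of -0.51 ± 0.26 (adjusted p = 0.745) rested on Maus2_2 and was 0.17 without it. In the same plasmablasts the red blood cell markers, 5 genes, summed to 113 and 32.1 CPM in treated mice, against 3713 CPM in Maus2_2 and 13.7 CPM in Maus4_2. In Maus2_2 only Hbb-bt of these genes was at 0, and their part in the Bcl2 value was not tested.

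Bcl2l11, whose product BIM is the main killer protein bound by BCL2, took the same direction. In CD8+ T cells it had 75.4 and 50.9 CPM in treated mice, against 106 and 90.4 CPM in untreated mice. The groups did not overlap, and the log2 fold change was -0.67 ± 0.22 (unadjusted p = 0.00371, adjusted p = 0.491), or -0.38 without the treated mouse Maus6. In B cells it had 55.3 and 55.6 CPM in treated mice, against 81.7 and 56.4 CPM in untreated mice. Here the gap between the groups was under 1 CPM, and the log2 fold change of -0.31 ± 0.16 (adjusted p = 0.934) was -0.02 without Maus2_2. The estimates were -0.19 ± 0.16 in CD4+ T cells and -0.40 ± 0.27 in plasmablasts, where the groups overlapped and adjusted p was 0.920 and 0.817. Without Maus2_2 they were 0.03 and -0.04.

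The pore former Bax and the BH3-only gene Bbc3 were higher in treated mice in CD8+ T cells. Bax had 75.4 and 71.6 CPM in treated mice, against 31.1 and 62.1 CPM in untreated mice. The groups were separate, the log2 fold change was 0.60 ± 0.25 (unadjusted p = 0.0214, adjusted p = 0.556), and the value depended on the untreated mice. It was 0.24 without Maus2_2 and 1.23 without Maus4_2. Apart from that, 1 random draw of equal cells per mouse, with all 4 mice kept, gave 1.16 (unadjusted p = 0.000295, adjusted p = 0.268 in edgeR). Bbc3 had 62.8 and 46.2 CPM in treated mice, against 47.3 and 20.7 CPM in untreated mice. Its groups overlapped, and the log2 fold change of 0.72 ± 0.30 (unadjusted p = 0.0229, adjusted p = 0.556) was 0.17 without Maus4_2 and 1.37 without Maus2_2. In B cells Bbc3 had 9.22 and 7.89 CPM (32 and 25 UMIs) in treated mice, against 3.89 and 3.71 CPM (8 and 9 UMIs) in untreated mice. The groups were separate, and this was the largest fold change among the tested members, 1.17 ± 0.41 (unadjusted p = 0.0116, adjusted p = 0.934), on the fewest UMIs of those with an unadjusted p under 0.05. Equal cells per mouse gave 0.85 (unadjusted p = 0.103 in edgeR), and the unadjusted p of DESeq2 was 0.0798. With the same cluster weights in every mouse it was 0.88, without a test. The small B cell cluster 10 held 9 and 3 Bbc3 UMIs in Maus3_2 and Maus6, against 1 and 0 in Maus2_2 and Maus4_2. In CD8+ T cells the 7 monocyte markers summed to 144 and 269 CPM in treated mice, against 231 and 220 CPM in untreated mice. Cd14 and Ccr2 were at 0 in all 4, and Csf1r in Maus3_2, Maus6 and Maus2_2. The same sum was 721 to 1075 CPM in annotated NK cells and 31.0 to 41.7 CPM in CD4+ T cells. The part of each gene in these sums is not given here, and a relation to Bax or Bbc3 was not tested.

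Mcl1 stayed close in both groups despite its high count. In B cells it had 303 and 286 CPM in treated mice, against 293 and 288 CPM in untreated mice, with a log2 fold change of 0.02 ± 0.10. In CD4+ T cells the treated mice had 303 and 324 CPM, against 302 and 294 CPM in untreated mice (0.07 ± 0.09, groups separate), and in CD8+ T cells 170 and 194 CPM, against 179 and 200 CPM (-0.06 ± 0.16). The adjusted p was at least 0.940 in all 3 types, and 0.949 in plasmablasts, where the fold change was 0.10 ± 0.17. The guardian Bcl2l1 had estimates of 0.54 ± 0.43 in B cells (adjusted p = 0.934) and 0.44 ± 0.37 in CD4+ T cells (adjusted p = 0.920). Leaving out a mouse gave 0.27 without Maus2_2 to 0.91 without Maus4_2 in B cells, and 0.18 without Maus4_2 to 0.77 without Maus2_2 in CD4+ T cells, where equal cells per mouse gave 0.12. In both the treated mice were above the untreated ones, at 6.34 and 6.63 CPM, against 3.41 and 5.36 CPM, in B cells, and at 10.4 and 11.3 CPM, against 9.53 and 6.34 CPM, in CD4+ T cells. For Bak1 and Bcl2a1b the log2 fold changes lay between -0.01 and 0.39 in the types tested, with overlap of the groups in each, and for Bcl2a1d it was -0.0036 in B cells.

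**Figure D1:**
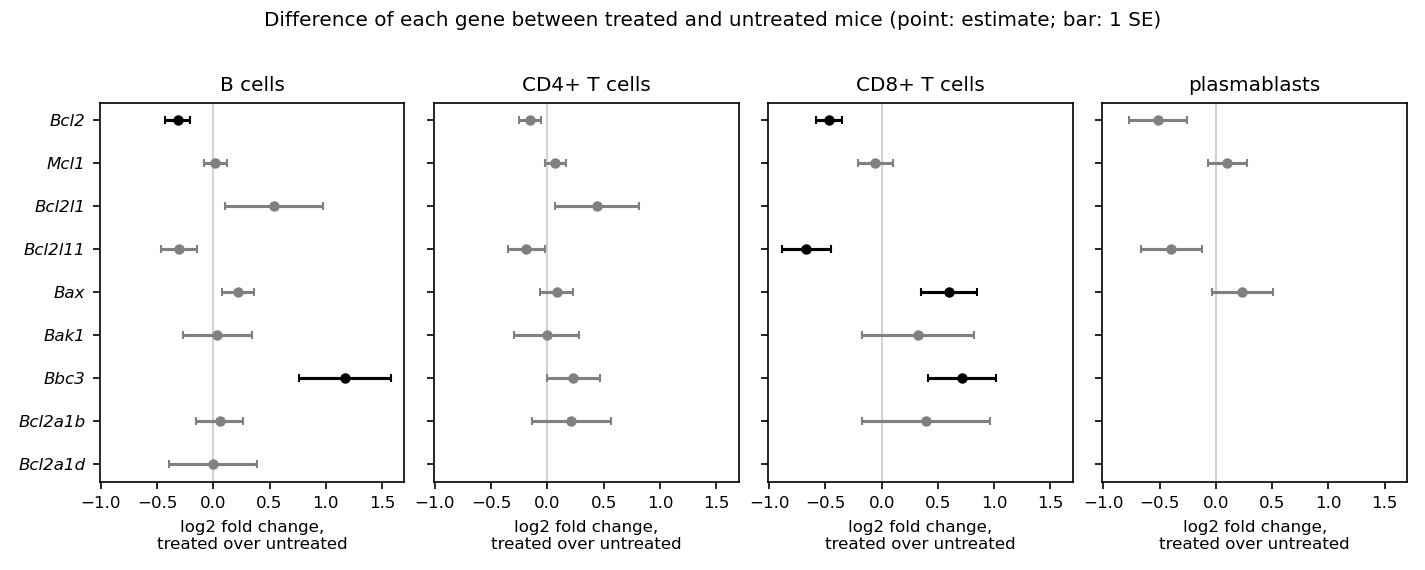
Log2 fold change of treated over untreated mice for each tested gene (points, bars of 1 SE) in 4 cell types, black where the unadjusted edgeR p was under 0.05 and grey elsewhere. Bcl2 and Bcl2l11 were left of 0 in all 4 types, Bax was right of 0 in all 4, and no gene passed the adjusted threshold.

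Counted over the members, treated and untreated mice were fully separate for 3 of 7 genes in CD8+ T cells, 0 of 4 in plasmablasts, 4 of 9 in B cells and 2 of 8 in CD4+ T cells. Such separation was found in 38.5%, 36.7%, 34.8% and 35.4% of all tested genes, so the members' shares were near or below the background. With both treated mice below both untreated mice there were 2, 0, 2 and 0 members, beside 18.1%, 17.6%, 17.1% and 16.9% of all tested genes. The 2 members were Bcl2 and Bcl2l11 in both B cells and CD8+ T cells. Among the untested NK cells, 3 of the 5 members that passed the filter were separate (Bcl2, Mcl1 and Bbc3, all above), beside 30.7% of 1700 genes, and Bcl2a1b, under the filter, was below. The median log2 fold change of the tested members was 0.32 in CD8+ T cells, -0.15 in plasmablasts, 0.04 in B cells and 0.08 in CD4+ T cells, against 0.00 to 0.01 for all tested genes.

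The difference of the treatment effect between the 4 tested types was tested in 1 model with the mouse as a block. None of the 9 members passed the adjusted threshold, and none had an unadjusted p under 0.05, beside 0.0505% and 3.59% of 9892 genes. The smallest p among them was that of Bcl2 (unadjusted p = 0.0816, adjusted p = 1 in edgeR), and with no filter on low counts its unadjusted p was 0.0463. An effect limited to CD8+ T cells was thus not shown for any member.

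The 9 clusters with at least 20 cells in every mouse divide the cells of the same 4 mice again. The share of all genes with separate mice was not computed by cluster, and it was 34.8% to 38.5% in the 4 tested types. Treated means of Bcl2 were lower in 8 of 9 clusters, and the mice were separate in 4 of them (clusters 0, 2, 4 and 9). The exception was cluster 8 of the CD4+ T cells, with 711 and 372 CPM in treated mice, against 540 and 453 CPM in untreated mice. In cluster 9 the nearest mice were at 157 CPM (treated, 16 UMIs) and 161 CPM (untreated, 12 UMIs). In cluster 4, which held 593 of the 600 CD8+ T cells, Bcl2 had 567 and 603 CPM in treated mice, against 844 and 797 CPM in untreated mice. In cluster 1 of the B cells it was nearly level, with 129 and 141 CPM in treated mice, against 144 and 134 CPM in untreated mice. Bcl2l11 also had lower treated means in 8 of 9 clusters, with separate mice in clusters 1, 2, 4 and 6. In cluster 1 its nearest mice were at 38.0 CPM (treated) and 38.1 CPM (untreated). Bbc3 had higher treated means in 7 of 9 clusters and separate mice in 2, both of B cells, on 0 to 9 UMIs per mouse. The clusters share the same 4 mice and are not replicates of one another. With the same cluster weights in every mouse, Bcl2 was at -0.68 in plasmablasts, -0.20 in B cells and -0.13 in CD4+ T cells (log2 ratio of CPM on plain totals, no test). CD8+ T cells had 1 such cluster, so this could not be done for them.

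**Figure D2:**
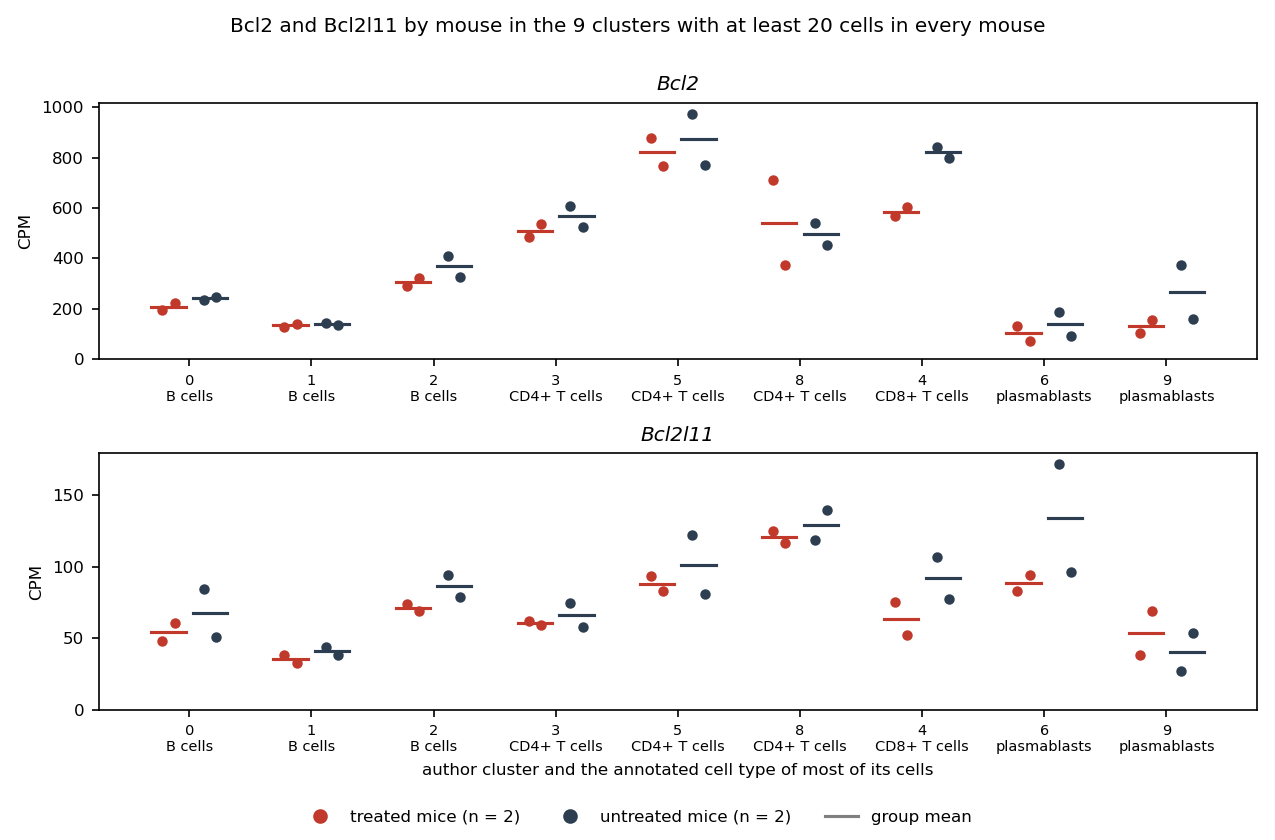
CPM of Bcl2 (top) and Bcl2l11 (bottom) in 9 author clusters, 1 point per mouse, with lines for the group means of 2 treated and 2 untreated mice. The treated mean lay below the untreated mean in 8 of 9 clusters for each gene, with cluster 8 the exception for Bcl2 and cluster 9 for Bcl2l11.

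The length of a gene moved with the difference between the groups, and the members differ strongly in length. Bcl2 spans 176097 bases (chr1:106538178-106714274, minus strand, GRCm38, longer than 95.2% of the genes tested in B cells) and Bcl2l11 36510 bases (chr2:128126038-128162547, plus strand). Mcl1 (chr3:95658788-95663176), Bax (chr7:45461697-45466898) and Bbc3 (chr7:16308393-16318205) span 4389, 5202 and 9813 bases. Across all tested genes of at least 100000 bases, the median log2 fold change was -0.16 in CD8+ T cells, -0.13 in plasmablasts, -0.10 in B cells and -0.10 in CD4+ T cells. For genes under 10000 bases it was 0.16, 0.16, 0.10 and 0.11 in the same order of types. Genes of at least 100000 bases took 9.95% and 9.74% of UMIs in CD8+ T cells of treated mice, against 11.7% and 11.8% in untreated mice, and 14.0% and 13.1% in treated B cells, against 15.3% and 14.4% in untreated B cells. The Wilson intervals at 95% were at most ± 0.134 percentage points in the tested types and cover counting error only.

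After the trend with gene length was subtracted, Bcl2 was left at -0.31 in CD8+ T cells, -0.22 in B cells, -0.06 in CD4+ T cells and -0.39 in plasmablasts. In CD8+ T cells Bcl2l11 was left at -0.64, Bax at 0.45 and Bbc3 at 0.61, so these 3 moved less than Bcl2. The subtraction was chosen after the data were seen and carries no test. The sources used here do not say whether reads within introns were counted, and the part of gene length in the differences was not tested.

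The study's question concerned microRNAs of the treated ear, so the longest annotated 3′ UTR of each member was searched for matches to bases 2 to 8 of 5 of them. The mature sequences (RefSeq, GRCm38.p6) are shown with these seed bases in capitals, because the matches below are defined by them.
miR-223-3p: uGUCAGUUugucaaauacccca
miR-451a: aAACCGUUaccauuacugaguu
miR-142a-5p: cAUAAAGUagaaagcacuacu
miR-144-3p: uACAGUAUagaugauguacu
miR-144-5p: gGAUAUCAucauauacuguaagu
None of the 9 members held the match of miR-223-3p (AACTGAC), miR-451a (AACGGTT) or miR-144-5p (TGATATC). Among 9084 genes tested in B cells with an annotated 3′ UTR, 9.69%, 1.97% and 5.77% held them. Mcl1 had a 7-base match of miR-142a-5p (ACTTTAT, held by 16.8% of genes), and Bbc3 had an 8-base match of miR-144-3p (ATACTGT followed by A, the first 7 bases of which 14.3% of genes held). Both sites are shown in the strand of the messenger RNA with the match in capitals.
Mcl1: gacttcagagcACTTTATgtagttgaataa
Bbc3: cagcctgtaagATACTGTAcatgcactgct
The match in Mcl1 starts at base 1822 of a UTR of 2353 bases, and that in Bbc3 at base 852 of 971. A match describes these letters only. A relation of either match to the levels of Mcl1 or Bbc3 was not tested.

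Genes that work beside the members were read from 8 lists, and none of their genes passed the adjusted threshold in any tested type. Of all genes, 8.44% in CD8+ T cells, 6.79% in plasmablasts, 4.65% in B cells and 4.79% in CD4+ T cells had an unadjusted edgeR p under 0.05. In the same order, 3357 of 6798, 2664 of 5372, 4874 of 9903 and 4245 of 8680 genes had negative estimates. For genes under 10000 bases that share was 27.6% to 31.7%, and the length trend was not subtracted from the lists. Of the other BCL2 family genes (13 of 17 in the table), 8 were tested in B cells, with 0 higher and 1 lower at an unadjusted p under 0.05. That gene was Bmf, a BH3-only gene, at 7.20 and 8.52 CPM in treated mice, against 12.6 and 13.6 CPM in untreated mice (log2 fold change -0.74, unadjusted p = 0.0247). Bnip3l, a gene of mitophagy, had 141 and 109 CPM in treated plasmablasts, against 85.5 and 90.5 CPM in untreated ones (0.52, unadjusted p = 0.0517). Of the caspase list, 22 genes were tested in B cells, with 1 up and 1 down at an unadjusted p under 0.05, and the median of the list was 0.06, against 0.00 for all genes. Vdac2, a channel of the outer mitochondrial membrane that binds BAK, had 96.5 and 95.3 CPM in treated B cells, against 83.2 and 73.3 CPM in untreated B cells (0.30, unadjusted p = 0.0312). Ripk1, a kinase of death receptor signalling, had 14.1 and 14.4 CPM in treated plasmablasts, against 32.0 and 36.9 CPM in untreated ones (-1.26, unadjusted p = 0.0236).

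The p53 targets were examined because Bbc3 belongs to this response. Of 4 tested in CD8+ T cells, 11 in B cells and 8 in CD4+ T cells, none had an unadjusted p under 0.05, and in plasmablasts 1 of 4 did. It was Sesn1, a stress-induced sestrin, with 196 and 181 CPM in treated plasmablasts, against 274 and 238 CPM in untreated ones (log2 fold change -0.43, unadjusted p = 0.0231). Sesn2 had 4.61 and 3.79 CPM in treated B cells, against 2.92 and 0.412 CPM in untreated B cells (1.40, unadjusted p = 0.0624). Of the list for turnover of MCL1 and BIM, Btrc, a subunit of a ubiquitin ligase, had 22.8 and 27.3 CPM in treated CD4+ T cells, against 35.0 and 34.9 CPM in untreated ones (-0.49, unadjusted p = 0.0366). Dynll1, a dynein light chain that holds BIM, had 68.4 and 78.2 CPM, against 60.4 and 55.8 CPM, in treated and untreated CD4+ T cells (0.33, unadjusted p = 0.0508). The median of this list was -0.18 in both CD4+ and CD8+ T cells.

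NF-kB is known to induce Bcl2a1 and Bcl2l1, and its inhibitor gene Nfkbia had the smallest p of its list, in which 6 of 9 tested genes had positive estimates in CD8+ T cells. Nfkbia had 267 and 287 CPM in treated CD8+ T cells, against 189 and 187 CPM in untreated ones (log2 fold change 0.56, unadjusted p = 0.000460, adjusted p = 0.348 in edgeR). Rela, a subunit of NF-kB, had 36.1 and 30.9 CPM in treated plasmablasts, against 17.8 and 13.4 CPM in untreated ones (1.10, unadjusted p = 0.0497). Of the immediate early genes, Jund had 492 and 378 CPM in treated CD8+ T cells, against 370 and 244 CPM in untreated ones (0.51, unadjusted p = 0.00196). Cd69, an early activation marker, had 121 and 97.8 CPM in treated CD4+ T cells, against 78.8 and 72.3 CPM in untreated ones (0.54, unadjusted p = 0.00363). In CD4+ T cells 9 of 10 tested immediate early genes had a positive estimate, 2 of them with an unadjusted p under 0.05 (beside 4.79% of all genes). The list's median was 0.25, against 0.01 for all genes and 0.11 for genes under 10000 bases, of which 31.7% had negative estimates. In CD8+ T cells 4 of 10 had a positive estimate, also 2 of them with an unadjusted p under 0.05 (beside 8.44% of all genes). The median there was -0.06. In B cells 10 of 12 had a positive estimate (median 0.14), and in plasmablasts 5 of 8 (median 0.19).

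Glucocorticoids are known to act on lymphocyte survival. Of their list, 5 of 5 tested genes had positive estimates in CD8+ T cells. The median was 0.35, against 0.01 for all genes and 0.16 for genes under 10000 bases. In plasmablasts 2 of 5 did (median -0.16), and in B cells and CD4+ T cells 5 of 7 each. Tsc22d3, a glucocorticoid target, had 274 and 232 CPM in treated CD4+ T cells, against 197 and 195 CPM in untreated ones (log2 fold change 0.37, unadjusted p = 0.00766). Txnip had 1180 and 1032 CPM in treated CD4+ T cells, against 1027 and 918 CPM in untreated ones (0.19, unadjusted p = 0.0767). Of the receptors that feed survival signals, 6 of 6 tested had positive estimates in B cells (median 0.13) and 3 of 6 in CD8+ T cells (median 0.0019), none with an unadjusted p under 0.05. Tnfrsf13c, the BAFF receptor, had 137 and 144 CPM in treated B cells, against 119 and 125 CPM in untreated ones (0.20, unadjusted p = 0.0934). Il4ra had 59.6 and 56.8 CPM, against 47.2 and 50.7 CPM, in treated and untreated B cells (0.25, unadjusted p = 0.0956).

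The genes whose pattern was most like each member were ranked by Pearson's r of log2(CPM + 1) over the 16 sums of mouse and tested cell type, among genes of at least 10 CPM. These sums share 4 mice and 4 types, so r mostly follows the cell types and is a description. For Bcl2 they were Pitpnc1 (r = 0.982), Vps37b (0.974) and Ipcef1 (0.973), and for Bbc3 Tcf7 (0.97), Cdh23 (0.969) and Tnfaip8l1 (0.966). For Mcl1 they were Gtf2a2 (0.909), Atp6v1e1 (0.893) and Gng12 (0.888), and for Bcl2a1b Gm5165 (0.890), Slc31a1 (0.863) and Lin54 (0.860). Bax, Bcl2l11 and Bak1 had weaker partners, led by Spsb3 (0.837), Coro1c (0.811) and Insig1 (0.784), and Bcl2l1 and Bcl2a1d were under the minimum.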

How the data were processed

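The authors deposited whole-number UMI counts per gene and cell, with a table of each cell's mouse, cluster, cell type and percent of mitochondrial counts. Per the labels and methods, they used Cell Ranger 7.1.0 on mm10 and Seurat 4.3.0, removed ambient RNA with SoupX, filtered cells on gene number and mitochondrial percent, and removed doublets with DoubletFinder. The sources used here do not say if the deposited counts are those after SoupX. Cell types are the authors', and no doublet caller was run again.

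UMI counts of each mouse and type were added up (at least 20 cells in every mouse) and fitted with edgeR 4.0.16 (R 4.3.3), with TMM scaling, filterByExpr and Benjamini-Hochberg adjustment at 0.05 over all genes of a type. The treatment by type model had the mouse as a block. limma 3.58.1 (voom), DESeq2 1.42.0, RLE scaling, no filter, equal numbers of cells and leaving out any 1 mouse were alternatives. Replicates are separate mice. In a test on simulated data with 2 mice per group, 55.4%, 38.3%, 72.7% and 58.6% of genes changed by a factor of 2 were called in CD8+ T cells, plasmablasts, B cells and CD4+ T cells (6570, 5167, 9705 and 8489 genes run), and 21.2%, 13%, 24.7% and 15.6% of those changed by 1.5.

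Shares of cells with a UMI are expectations after thinning to 2000 UMIs, which leaves out shallower cells. Positions and UTRs come from GENCODE vM21 (GRCm38), which gave a length for 14880 of 15093 genes, and the length trend is a lowess fit with a span of 0.3. Another gene is annotated on the same strand over Bcl2, Bax and Bcl2a1b, and the sources used here do not say how shared reads were counted. All 9 members were named, and from each list the called genes or else the 2 genes with the smallest unadjusted p. The members and lists were chosen with earlier results of these data known.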

Additional observations from a re-analysis of the deposited data

Results flagged for a closer look

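The annotated NK cells were outside the tests because 3 of 4 mice had fewer than 20 of them, and these values have no test. In them 3 members had higher levels in both treated mice than in both untreated mice, and 1, Bcl2a1b, had lower levels (6.09 and 0 CPM in treated mice, against 13.5 and 26.4 CPM in untreated mice). Of the 1700 genes that passed the filter there, 30.7% were separate in either direction. Bcl2 had 1279 and 1196 CPM in treated mice (mean 1237), against 1185 and 1100 CPM in untreated mice, the opposite direction to the 4 tested types. Mcl1 had 231 and 191 CPM in treated mice (mean 211), against 162 and 158 CPM in untreated mice, on 16 to 38 UMIs per mouse. Bbc3 had 122 and 120 CPM in treated mice (mean 121), against 47.1 and 88.0 CPM in untreated mice, on 7 to 20 UMIs per mouse. Whether NK cells differ from the other types was not tested.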

How the results depend on the processing

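No member passed the adjusted threshold of 0.05 under any alternative run, in any of the 4 cell types or in the test of the difference between types. Of all tested genes, 2 passed it in CD8+ T cells, 1 in plasmablasts, 0 in B cells and 0 in CD4+ T cells, and with no filter on low counts 11, 13, 21 and 11. CD8+ T cells gave 0 with DESeq2, 0 with equal cells per mouse and 1 with limma-voom, and plasmablasts 0 with DESeq2 and 2 with equal cells. Leaving out 1 mouse gave 6 to 16 in CD8+ T cells, 3 to 13 in plasmablasts, 10 to 16 in B cells, 0 in CD4+ T cells and 2 to 6, in place of 5, for the difference between types. Of 28 log2 fold changes of members, 152 of 159 values kept their sign under the other alternatives, apart from leaving out a mouse or the length trend. The exceptions were Mcl1 (-0.0036), Bak1 (-0.16), Bcl2a1b (-0.032) and Bcl2a1d (0.077) in B cells with the same cluster weights in every mouse (not possible in CD8+ T cells, which had 1 cluster), Bcl2a1d in B cells with DESeq2 (0.0054) and without the filter (0.0054), and Bak1 in CD4+ T cells with equal cells (0.18). Leaving out 1 mouse turned 15 of the 28. The ranges were, in B cells, -0.0222 to 0.0600 for Mcl1, -0.29 to 0.32 for Bak1, -0.0412 to 0.15 for Bcl2a1b and -0.28 to 0.31 for Bcl2a1d. In CD4+ T cells they were -0.37 to 0.0275 for Bcl2l11, -0.0085 to 0.18 for Bax, -0.13 to 0.0913 for Bak1, -0.17 to 0.51 for Bbc3 and -0.0711 to 0.57 for Bcl2a1b. In CD8+ T cells they were -0.17 to 0.0355 for Mcl1, -0.33 to 0.90 for Bak1 and -0.20 to 1.98 for Bcl2a1b, and in plasmablasts -0.99 to 0.17 for Bcl2, -0.11 to 0.36 for Mcl1 and -0.11 to 0.49 for Bax. Minus the length trend, a setting added after seeing the data, Mcl1 turned in plasmablasts (-0.0628), B cells (-0.0847) and CD4+ T cells (-0.0322), Bak1 (-0.0363) and Bcl2a1b (-0.0208) in B cells and Bax in CD4+ T cells (-0.0137). The cause was not tested. By mean UMIs per cell, 5 of 9 members kept the cell type of their highest level, and by shares of cells without thinning 4 of 9. With TMM over all 16 sums of mouse and tested type, an unplanned setting, the highest tested type of Bcl2l11 moved from plasmablasts to CD8+ T cells. No paired analysis was possible because the labels name mice and give no number shared between the groups. With 2 mice per group and few UMIs of Bcl2l1, Bak1 and the Bcl2a1 genes, depth limits what could be called.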
